A study of Mus musculus with 12 samples.

Results

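Cytosolic ribosomal protein genes were described in mouse adipose tissue. They were taken from the deposited count table as the protein-coding genes whose symbol starts with Rpl or Rps and a digit, together with Rplp0, Rplp1, Rplp2 and Rpsa, without the Rps6k kinase genes and without symbols marked as pseudogenes. This gave 86 genes among 53431, and 83 of them passed the filter on low counts. Of the 86 genes, 46 encode proteins of the large (60S) subunit and 31 encode proteins of the small (40S) subunit. The other 9 are paralogs or genes that share only the name, and the 3 genes that failed the filter, Rpl3l, Rpl10l and Rpl39l, are among these.

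The cytosolic ribosome translates messenger RNA (mRNA) in the cytoplasm. The small subunit reads the mRNA and the large subunit joins the amino acids, and because nearly every ribosomal protein is needed in each ribosome, the genes of this family are usually expressed together in all tissues. Their mRNAs are known to begin with a C followed by a run of pyrimidines, the 5′ terminal oligopyrimidine (TOP) motif, through which the kinase complex mTORC1 and the protein Larp1 control their translation and stability. In fat, ribosomal protein genes often serve as reference genes for quantitative PCR.

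Messenger RNA was sequenced from adipose tissue of mice aged 6 months on a mixed C57BL/6 x 129/SvJ background, in 3 groups of 4 libraries. Treated Bbs2-/- mice carried the Bbs2-/- genotype and received Genz667161, an inhibitor of glucosylceramide synthase, mixed into the feed at 0.033% by weight between the ages of 2 and 6 months. Untreated Bbs2-/- mice had the same genotype and no inhibitor, and wild-type (WT) mice had no inhibitor either. The product of Bbs2 is part of the BBSome, which carries membrane proteins through primary cilia, and people who lack it have Bardet-Biedl syndrome, often with obesity. The labels give neither the fat depot nor the sex, and they do not say that the 4 samples of a group came from separate mice, so p-values measure the spread between samples, which may be technical.

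The 12 libraries held 16317865 to 20224200 estimated counts. Bbs2 was at 61.5 ± 5.30 counts per 1e6 library counts (CPM) in treated Bbs2-/- libraries (SD, n = 4 in each group). It was at 61.9 ± 9.41 CPM in untreated Bbs2-/- and 12.5 ± 0.267 CPM in WT libraries. It was thus higher, not lower, in the libraries labelled Bbs2-/-, and the labels do not describe the allele. Its level therefore does not verify the genotype, and all groups are named by their labels. Foxj1, a gene of ciliated epithelium, had 48 to 164 counts in treated 1, treated 3, WT 1 and WT 4 and at most 2 in the other libraries, and WT 1 held 1115 CPM of a list of epididymis genes. WT 2 and WT 3 carry another type of library name than all other libraries. Counts of members are therefore also given without these libraries. A gene is called here when its edgeR p-value, adjusted over all 15968 tested genes by the Benjamini-Hochberg method, is under 0.05.

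The messages of ribosomal proteins were abundant and varied little. On the authors' log2 FPKM scale, which is per transcript length, the median level of the 77 subunit genes was 8.49, against 2.27 over all 18810 genes in that table. Rpl41, which encodes the shortest ribosomal protein, was the highest at 10.35. It was followed by Rps24 at 9.83, the stalk gene Rplp1 at 9.82, Rpl23a at 9.68 and Rps29 at 9.57. The lowest levels among tested members were 2.30 for Rpl12, 3.84 for Rpl5, 4.13 for both Rps12 and Rps19bp1 and 4.83 for Rpl7l1. Near-identical copies take most reads of Rpl12, Rpl5 and Rps12, as described below, whereas Rps19bp1 and Rpl7l1 encode other nucleolar proteins. The median coefficient of variation of CPM over the 12 libraries was 14.3% for the tested members and 25.2% over all tested genes. Within groups it was 13.0% and 17.8%.

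The starts of the genes are shown because the TOP motif distinguishes this family. In RefSeq start sites of build GRCm38.p6, 66 members were found and 20 were not in that table. A C at the annotated start followed by at least 4 C or T was present in 14 of the 66 genes (21.2%), against 3.01% of 27025 genes. When the C could lie within 5 bases of the annotated start, the shares were 45.5% and 21.2%, and with at least 6 C or T after it 34.8% and 7.64%. Only the gene's own strand was searched, and a match is a description of the sequence. The windows below run from 15 bases before to 15 bases from the annotated start, 5′ to 3′, with the longest such run in capitals. Rpl15, Rpl35, Rpl35a and Rps24 fell with the inhibitor, while Rpl28 and Rplp2 were not called in either comparison with the untreated libraries.
Rpl15, chr14:18270972-18271001, minus strand: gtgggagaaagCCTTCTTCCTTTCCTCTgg
Rpl35, chr2:39005117-39005146, minus strand: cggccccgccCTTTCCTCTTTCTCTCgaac
Rpl35a, chr16:33056467-33056496, plus strand: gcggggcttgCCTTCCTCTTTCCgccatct
Rps24, chr14:24490663-24490692, plus strand: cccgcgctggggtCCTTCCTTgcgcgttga
Rpl28, chr7:4792950-4792979, plus strand: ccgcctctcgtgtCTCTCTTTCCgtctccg
Rplp2, chr7:141447636-141447665, plus strand: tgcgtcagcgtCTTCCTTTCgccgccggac
The table lists 2 other starts for Rpl35a and 1 other for Rps24, and these held no run. Runs of this kind thus stood at genes that fell and at genes that were not called. The windows of Rps3, Rpl23 and Rpl41 held none at the start annotated by RefSeq, which says only that these letters are not in this window.

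Summed over all members, ribosomal protein messages took the highest share of counts in untreated Bbs2-/- libraries. The share was 1.83, 1.82, 1.61 and 1.80% in treated Bbs2-/- libraries 1 to 4, 2.04, 2.15, 1.91 and 2.60% in untreated Bbs2-/- libraries, and 1.71, 1.65, 1.92 and 1.94% in WT libraries. The means were 1.76 ± 0.107% in treated, 2.17 ± 0.299% in untreated and 1.81 ± 0.146% in WT libraries (SD, n = 4 each). By share the 4 treated libraries lay below all untreated libraries, while untreated 3 lay below WT 3 and WT 4. On the CPM scale, which divides by library sizes scaled by the trimmed mean of M values (TMM), the sums were 17979 ± 1336 in treated, 20219 ± 2660 in untreated and 19158 ± 1731 CPM in WT libraries. The ratio of the means was 0.812 for treated over untreated libraries by share and 0.889 by CPM, and 1.20 and 1.06 for untreated over WT libraries. By CPM the groups overlapped: untreated 3, at 17752 CPM, lay below treated 1, 2 and 4, at 17830, 18835 and 19099 CPM. Members split by name, with paralogs and namesakes included, showed the same order by share. Genes named Rpl, mostly of the 60S subunit, held 1.05 ± 0.0646, 1.26 ± 0.160 and 1.08 ± 0.0845% in treated, untreated and WT libraries. Genes named Rps, mostly of the 40S subunit, held 0.717 ± 0.0436, 0.909 ± 0.140 and 0.728 ± 0.0617%.

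**Figure D1:**
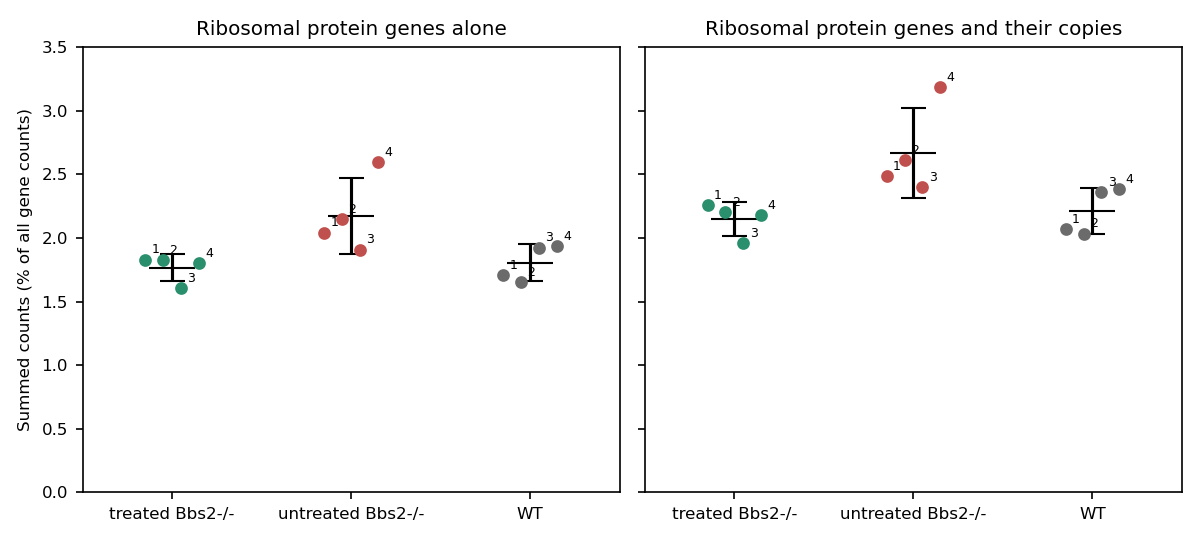
Summed share of ribosomal protein genes in all gene counts (%, vertical axis) for each library, with the replicate number beside each point and the group mean ± SD (n = 4), for the genes alone and with their near-identical copies added. Alone, the treated Bbs2-/- libraries sit between 1.61 and 1.83%, below the untreated Bbs2-/- libraries at 1.91 to 2.60%, and untreated 4 is the highest of all.

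The size of the difference and the overlap of groups thus depend on the scaling, as the plotted shares and the CPM sums show. Genes encoded in the mitochondrial genome took 6.75 ± 1.21% of counts in treated, 3.77 ± 0.476% in untreated and 6.97 ± 1.96% in WT libraries. The part of this in the members' shares was not tested. In bulk tissue, fewer cells of a type and less RNA per cell cannot be told apart.

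With the inhibitor, ribosomal protein genes that passed the test were all lower than in untreated Bbs2-/- libraries. Of 83 tested members 16 fell and 0 rose (19.3% called), while among all tested genes 37.2% were called, 18.5% higher and 18.8% lower. The share of members that fell was therefore near that of all genes, and the share that rose was not. Of the 83 log2 fold changes 69 were negative, with a median of -0.19 against 0.03 over all genes. Changes were small: the 16 called members had log2 fold changes between -0.28 and -0.83. Of 46 tested 60S genes 9 fell and of 31 tested 40S genes 7 fell, with medians of -0.19 and -0.23. In 20 members all 4 treated libraries lay below all 4 untreated ones and in 0 above, against 20.7% of all tested genes below and 19.0% above.

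Rps3 encodes a 40S protein at the mRNA entry channel that also acts in DNA repair (ENSMUSG00000030744.13, chr7:99477896-99483738, mm10). It was at 273, 282, 249 and 270 CPM in treated Bbs2-/- libraries 1 to 4, 340, 346, 329 and 381 CPM in untreated Bbs2-/- libraries, and 283, 297, 305 and 302 CPM in WT libraries. By CPM all 4 untreated libraries lay above all others, and all 4 treated libraries lay below WT. On the authors' log2 FPKM scale WT 4, at 7.93, lay above untreated 1 at 7.90 and untreated 3 at 7.88. The treated and WT means on that scale were 7.69 and 7.68. Treated against untreated libraries gave a log2 fold change of -0.38 (SE 0.08) with an edgeR adjusted p of 0.00311, and the gene was called in 26 of 27 alternative settings. The 1 setting that lost it was the fit without the 4 libraries with Foxj1 counts.

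Rps27a encodes a fusion of ubiquitin and a 40S protein that is cleaved into both (ENSMUSG00000020460.15, chr11:29545846-29548109). Its levels were 254, 256, 210 and 232 CPM in treated Bbs2-/- libraries, 310, 320, 294 and 418 CPM in untreated Bbs2-/- libraries, and 246, 246, 256 and 252 CPM in WT libraries. Untreated 4 was the highest, and the untreated libraries overlapped neither of the other groups. It had a log2 fold change of -0.50 for treated against untreated libraries (SE 0.11, edgeR adjusted p = 0.00537), called in 25 of 27 settings. The 2 settings that lost it both left out the 4 libraries with Foxj1 counts. Rpl23, a 60S gene near the subunit interface (chr11:97777527-97782437), was at 344, 354, 306 and 353 CPM in treated libraries, 475, 454, 405 and 543 CPM in untreated libraries and 329, 400, 379 and 413 CPM in WT libraries. Every treated library lay below every untreated one, with a log2 fold change of -0.47 and an SE of 0.11 (edgeR adjusted p = 0.00588). Rpl35a, a 60S gene mutated in some people with Diamond-Blackfan anaemia (chr16:33056453-33060189), was at 166, 179, 152 and 177 CPM in treated libraries, 208, 208, 184 and 275 CPM in untreated libraries, and 156, 169, 180 and 188 CPM in WT libraries. Treated and untreated libraries did not overlap, while untreated 3 lay below WT 4, and its log2 fold change came to -0.38 with an SE of 0.12 (edgeR adjusted p = 0.0279).

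Among the other 60S genes that fell, Rpl37 averaged 110 ± 12 CPM in treated and 145 ± 22.7 CPM in untreated libraries (log2 fold change -0.40). Rpl31, beside the peptide exit tunnel, averaged 200 ± 24.8 CPM in treated and 256 ± 16.5 CPM in untreated libraries (-0.36), and Rpl15 averaged 151 ± 11.9 and 194 ± 7.07 CPM (-0.36). Of 8 genes of the exit tunnel region, 2 fell, while 18.8% of all tested genes were called lower. That share also stands beside the next list, and both lists are too small to describe a region. Of 7 40S genes along the mRNA path, 3 fell, among them Rps3 and the decoding-centre gene Rps23 (160 ± 13.7 CPM in treated and 194 ± 21.2 CPM in untreated libraries, -0.28). Rps24 averaged 414 ± 20.3 CPM in treated and 524 ± 51.7 CPM in untreated libraries (-0.34), Rps15a 175 ± 11.8 and 219 ± 32.6 CPM (-0.32) and Rps16 121 ± 5.58 and 154 ± 27.7 CPM (-0.35). Rpl35 and Rps23 passed most narrowly, both with an edgeR adjusted p of 0.0478. They were called in 9 and 6 of 27 alternative settings.

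**Figure D2:**
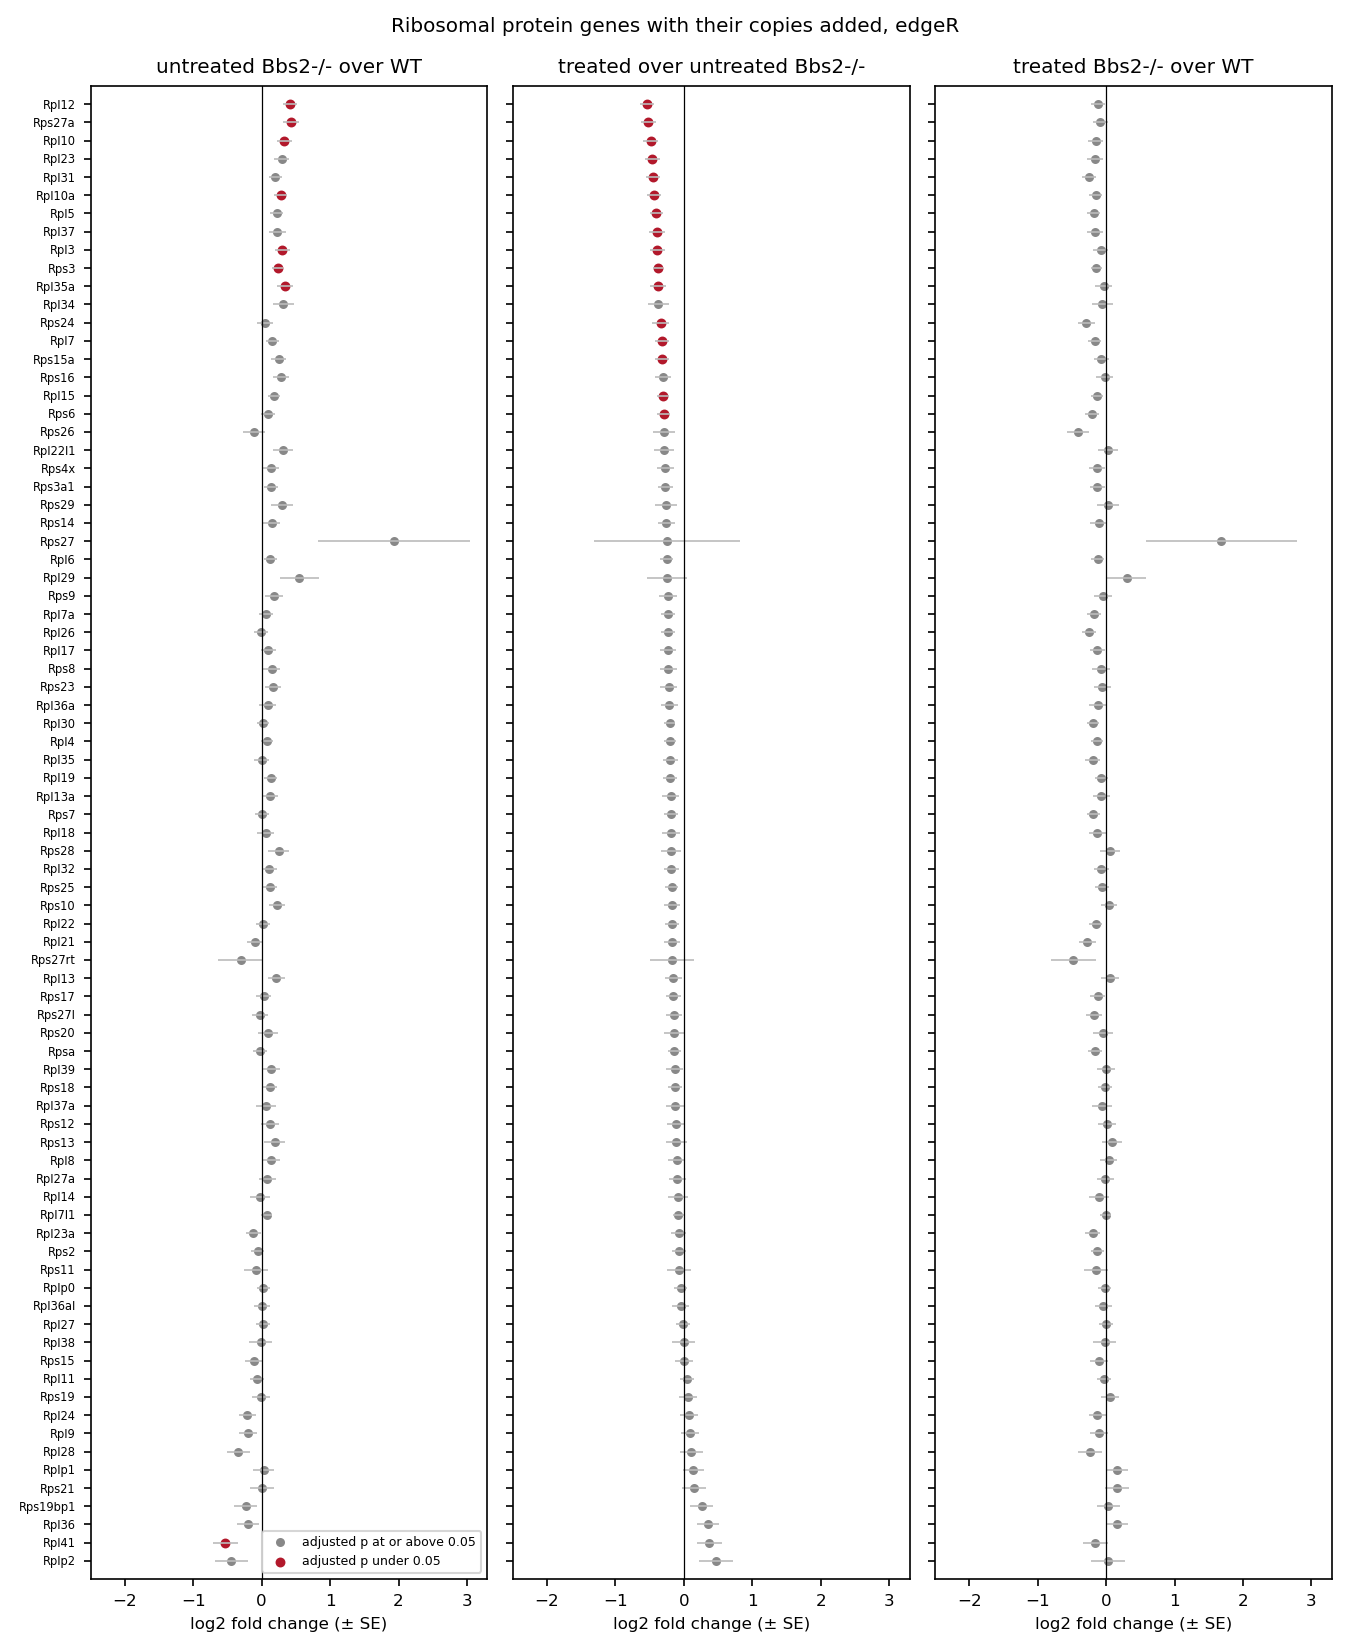
Log2 fold change ± SE of 81 of the 83 tested members, with reads of near-identical copies added to each, in 3 comparisons (horizontal axis, log2 scale); red points have an edgeR adjusted p under 0.05. In treated against untreated Bbs2-/- libraries 69 of the 81 points lie below 0 and 16 are called, all lower; in untreated Bbs2-/- against WT libraries 60 lie above 0.

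Counts in this comparison moved with the libraries used. Without the 4 libraries with Foxj1 counts 2 members fell and 0 rose, while 32.8% of all genes were called. These 2 were Rpl12 and Rpl15, while Rps3, Rps27a, Rpl23 and Rpl35a lost their call. Without WT 2 and WT 3, 9 fell and 0 rose, while 35.3% of all genes were called. Without treated 3, the treated library with the lowest share, 4 fell, while 32.8% of all genes were called. Without untreated 4, the library with the highest share, 7 fell and 4 rose (Rpl36, Rpl41, Rplp2 and Rps21), while 31.5% of all genes were called.

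In untreated Bbs2-/- against WT libraries few ribosomal protein genes passed the test. Of 83 tested members 5 rose (Rpl5, Rpl23, Rpl35a, Rps3 and Rps27a) and 1 fell (Rpl41), 7.23% in all, while 39.2% of all tested genes were called, 19.6% higher and 19.7% lower. The median log2 fold change was 0.10 against -0.02 over all genes, and 58 of 83 values were positive. For the 60S genes it was 0.09 and for the 40S genes 0.14. With library size alone in place of TMM scaling, the median over all genes was 0.16 in this comparison and -0.10 with the inhibitor. The split then became 30 members higher and 0 lower for untreated against WT libraries, with a median of 0.29, while 40.5% of all genes were called. With the inhibitor it became 0 higher and 37 lower, with a median of -0.32, while 36.9% of all genes were called. Relative to the median of all genes the members thus differed by a similar amount under both scalings.

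The log2 fold change of untreated Bbs2-/- against WT libraries was 0.42 for Rps27a (SE 0.11, edgeR adjusted p = 0.0117) and 0.24 for Rps3 (SE 0.08, adjusted p = 0.0329). It was 0.34 for Rpl35a (SE 0.12, adjusted p = 0.042) and 0.30 for Rpl23 (SE 0.11, adjusted p = 0.0441). Rps27a was called in 24 of 27 alternative settings, Rps3 and Rpl35a in 14 each and Rpl23 in 12. None of these genes was called without the 4 libraries with Foxj1 counts. Both comparisons use the same 4 untreated libraries, so a gene that is high there moves in both.

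Rpl41 went the other way (chr10:128548114-128549305). It was at 534, 605, 526 and 621 CPM in treated Bbs2-/- libraries, 381, 394, 407 and 584 CPM in untreated Bbs2-/- libraries and 432, 708, 759 and 649 CPM in WT libraries. The 3 lowest values were untreated libraries, while untreated 4 and WT 1 stood among the values of the other group. The log2 fold change was -0.53 for untreated against WT libraries (SE 0.18, edgeR adjusted p = 0.0361) and 0.37 for treated against untreated libraries (adjusted p = 0.126). Rplp2, a gene of the acidic stalk that recruits translation factors, had a like pattern at 292, 344, 284 and 413 CPM in treated, 199, 205, 182 and 376 CPM in untreated and 219, 368, 388 and 334 CPM in WT libraries, and was not called (edgeR adjusted p = 0.153 for treated against untreated). The other stalk genes were not called either: Rplp0 averaged 359 ± 74.8, 386 ± 64.6 and 365 ± 76.4 CPM, and Rplp1 449 ± 41.9, 409 ± 79.5 and 400 ± 67.4 CPM, in treated, untreated and WT libraries. Of the pair of proteins that bind the 5S RNA and restrain Mdm2, Rpl11 was not called at 238 ± 21.2, 217 ± 36.1 and 224 ± 3.69 CPM in the same order.

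Without WT 2 and WT 3 no member was called by edgeR in untreated against WT libraries, while 20.2% of all genes were still called. In that fit 9 members had an unadjusted edgeR p under 0.05, and the share of all genes at that threshold is not given here. Without the 4 libraries with Foxj1 counts 1 member rose and 3 fell, while 37.9% of all genes were called. Leaving out WT 2 gave 1 member called and 32.4% of all genes, leaving out untreated 1 gave 2 and 32.3%, and leaving out WT 3 gave 2 and 31.1%. Leaving out WT 1 kept the calls of Rpl5, Rps27a and Rpl41, lost those of Rpl23, Rpl35a and Rps3 and added Rpl28 and Rps12. Without untreated 4, 2 rose and 4 fell, the last being Rpl9, Rpl28, Rpl41 and Rplp2, and 33.8% of all genes were called.

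No ribosomal protein gene was called between treated Bbs2-/- and WT libraries. Of 83 members 0 were called by edgeR and 0 by DESeq2, while 0.257% of all tested genes were called by edgeR. An unadjusted edgeR p under 0.05 was found for 8 members, and the share of all genes at that threshold is not given here. With copies added none was called either, while 0.258% of all genes were. The median log2 fold change of the members was -0.09, and 64 of 83 values were negative. By CPM Rps3 was the 1 member whose treated libraries all lay below WT, and 0 members lay above, while 2.21% of all tested genes lay below and 2.68% above. Rps3 did not show this on the log2 FPKM scale. Its log2 fold change was -0.14 (edgeR adjusted p = 0.559).

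**Figure D3:**
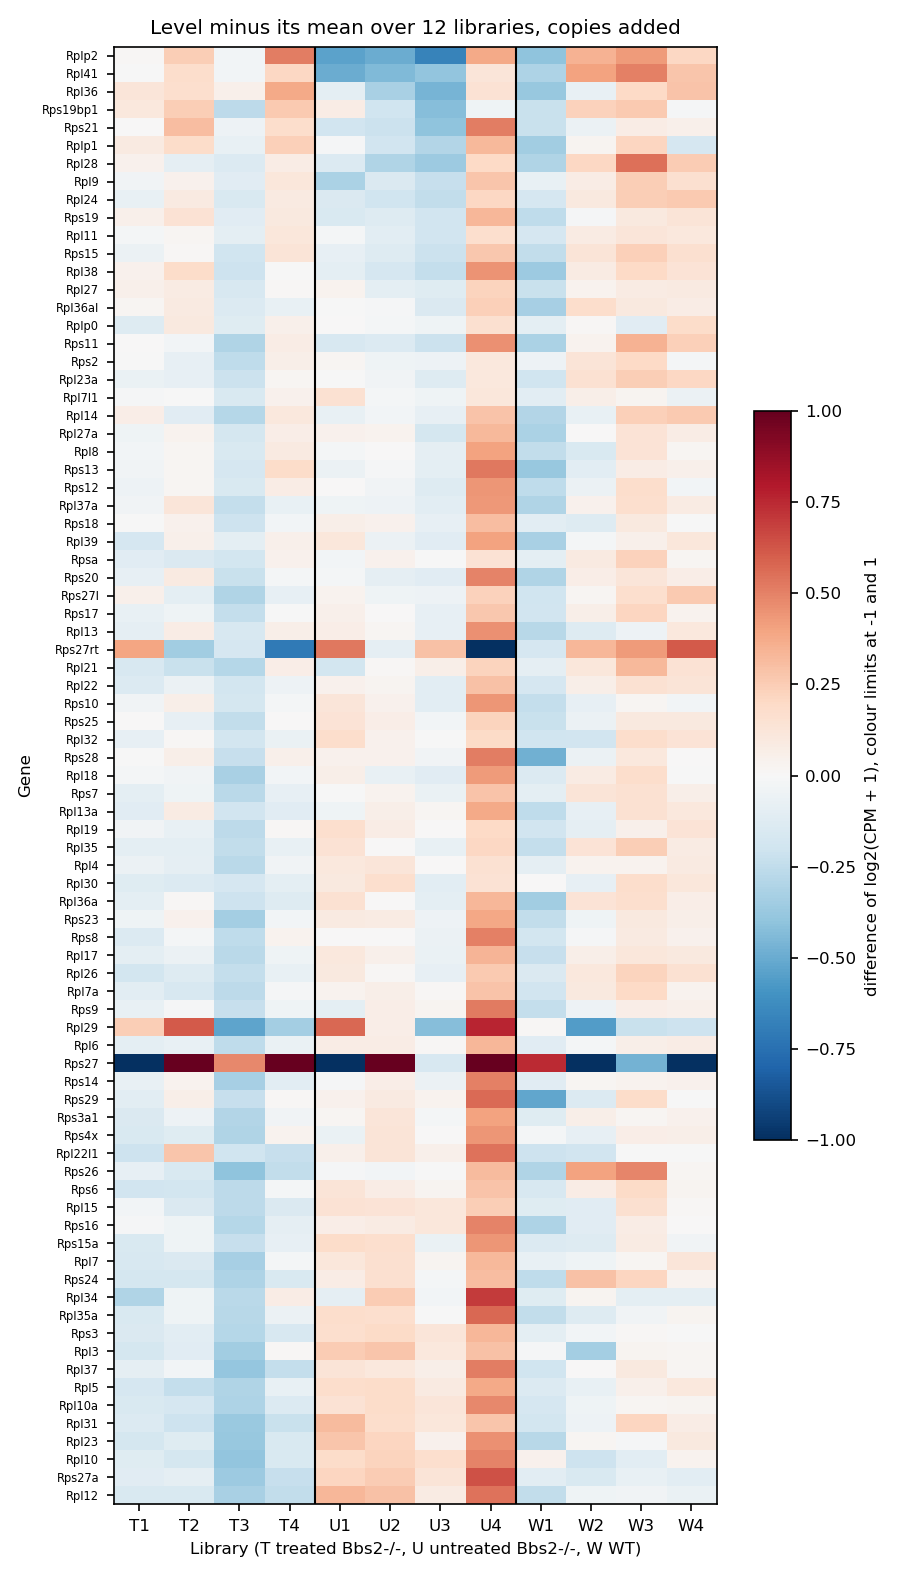
Level of 81 of the 83 tested members (log2 of CPM + 1 with copies added, minus its mean over the 12 libraries; colour scale) in treated Bbs2-/-, untreated Bbs2-/- and WT libraries. Untreated 4 has the highest level of all 12 libraries for 65 of all 83 members, treated 3 the lowest for 44 and WT 1 the lowest for 24.

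The heatmap of members by library shows that much of the variation ran through whole libraries. Untreated 4 was the highest of the 4 untreated libraries for 78 of 83 members, treated 3 the lowest of the treated ones for 77, WT 1 the lowest of WT for 74 and untreated 3 the lowest of the untreated ones for 70. Members of the family were thus high or low together in a library. These ranks are not given for all tested genes, so they are not shown to be particular to the family. The 25 subunit genes with the highest GC content of the coding sequence, 54.6 to 61.3%, included 0 genes called lower with the inhibitor when copies were added. Among the 25 genes with the lowest GC content, 44.2 to 50.3%, 9 were called lower, and among the 27 between them 8. In the same fit 19.0% of all genes were called lower. The median log2 fold changes differed little, at -0.18 in the highest, -0.23 in the middle and -0.22 in the lowest class. These values are a description, and the part of GC content in the calls was not tested.

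Reads of many members were divided between the gene and its copies. A search of annotated transcripts covered pseudogenes, symbols marked -ps and protein-coding genes whose symbol starts with Gm. It found 1068 copies of 81 members at 90% identity or more over at least 80% of the copy. Of these, 1057 are annotated as pseudogenes of any type, which the choice of transcripts favours, and 675 had counts. In 26 tested members the copies held at least 5% of the reads and in 10 more than 50%. How the authors' counting assigns a read that matches several genes could not be learned from the labels, so counts of these members alone are uncertain.

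The coding sequences show how little separates gene and copy. Rps13, a 40S gene, and its processed pseudogene Rps13-ps1 (chr8:87047689-87048226) differ at 2 of 456 coding bases, which stand in capitals below in bases 390 to 449 of the coding sequence from GENCODE M21 transcripts.
Rps13: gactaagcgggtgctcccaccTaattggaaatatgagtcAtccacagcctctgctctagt
Rps13-ps1: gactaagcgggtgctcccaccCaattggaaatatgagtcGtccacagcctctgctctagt
Rpl3, at the peptidyl transferase centre, and Rpl3-ps1 differ at 2 of 1209 aligned coding bases, of which 1 lies in bases 27 to 86.
Rpl3: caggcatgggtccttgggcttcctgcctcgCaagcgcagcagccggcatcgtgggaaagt
Rpl3-ps1: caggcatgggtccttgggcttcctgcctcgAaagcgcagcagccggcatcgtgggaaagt
Rps27 and the intronless gene Rps27rt share all 255 coding bases, of which the first 60 are shown once for both.
Rps27 and Rps27rt: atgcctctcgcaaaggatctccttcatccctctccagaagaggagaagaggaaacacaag

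Rps13 alone was at 57.4, 158, 4.07 and 6.14 CPM in treated Bbs2-/- libraries, 56.7, 66.2, 3.49 and 93.5 CPM in untreated Bbs2-/- libraries, and 122, 51.2, 59.1 and 62.8 CPM in WT libraries. Rps13-ps1 was at 102, 7.24, 141 and 180 CPM in treated, 99.9, 95.5, 149 and 143 CPM in untreated, and 3.49, 100, 113 and 106 CPM in WT libraries. Libraries with almost no reads on one of the pair had many on the other, in all 3 groups. Their sum lay between 125 and 236 CPM, and the coefficient of variation over the 12 libraries was 75.5% for the gene alone and 16.3% for the sum. For Rps27 it was 109.7% alone and 12.1% with Rps27rt, and for Rpl3 60.8% alone and 14.8% with Rpl3-ps1. Over the 26 members with at least 5% of reads in copies, the median was 19.2% alone and 13.1% with copies, and it fell in 22 of them.

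**Figure D4:**
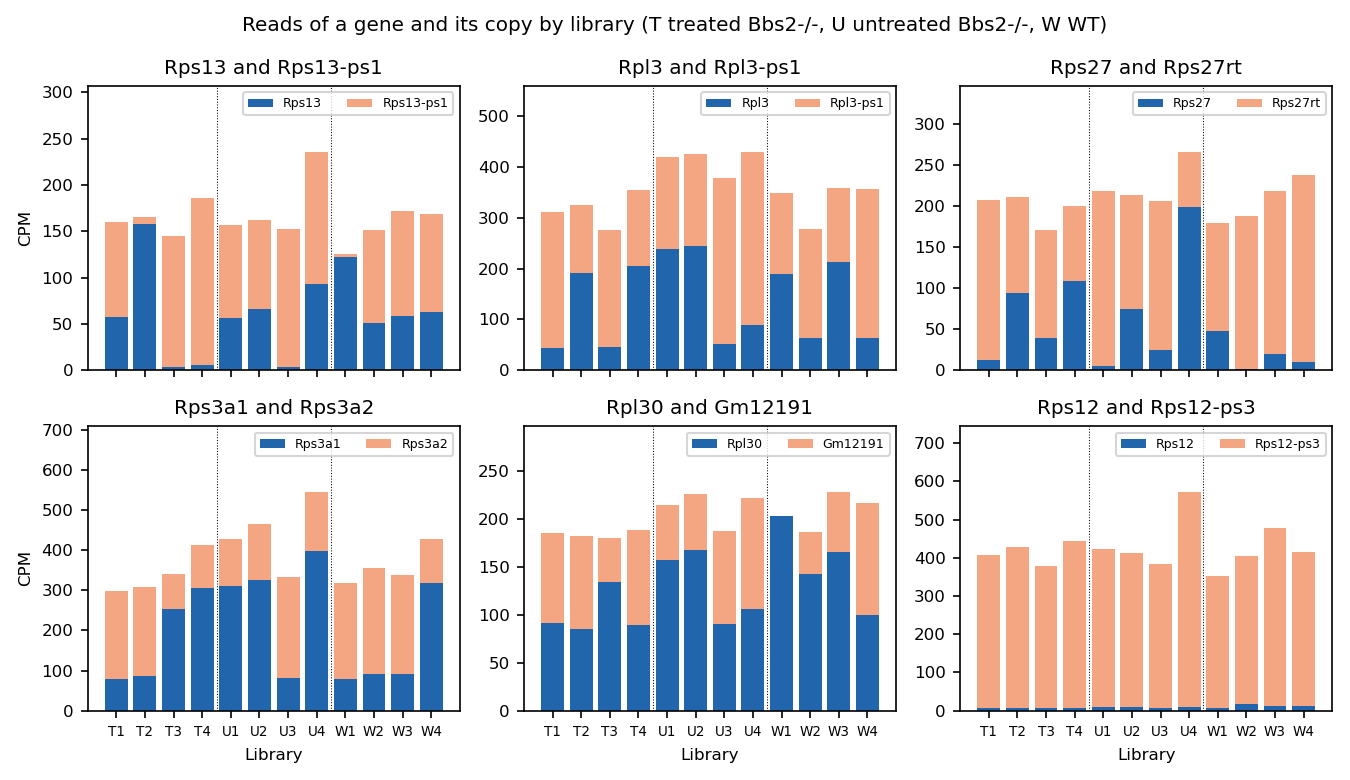
CPM of 6 members and of a near-identical copy of each (stacked bars, vertical axis from 0) in treated Bbs2-/- (T), untreated Bbs2-/- (U) and WT (W) libraries 1 to 4. For Rps13 the parts trade places between libraries, from 3.49 to 158 CPM for the gene, while the sum stays between 125 and 236 CPM.

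Adding the copies changed which members passed. Of 83 members 17 then fell and 0 rose with the inhibitor, while 37.5% of all genes were called, 18.6% higher and 19.0% lower, and 13 of the 16 earlier calls were kept. Rpl35, Rps16 and Rps23 no longer passed, and Rpl3, Rpl10, Rpl10a and Rps6 did. In untreated Bbs2-/- against WT libraries 7 members rose and 1 fell, while 39.5% of all genes were called, 19.7% higher and 19.8% lower, and 4 of the 6 earlier calls were kept. Rpl5 and Rpl23 no longer passed, and Rpl3, Rpl10, Rpl10a and Rpl12 did. Without the 4 libraries with Foxj1 counts these counts were 0 higher and 4 lower with the inhibitor, while 33.1% of all genes were called, and 1 higher and 3 lower for untreated against WT libraries, while 38.1% were.

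Rpl12 is a 60S gene at the base of the stalk (chr2:32961559-32965345), and copies held 98.2% of its reads. With copies it was at 232, 232, 206 and 218 CPM in treated Bbs2-/- libraries, 326, 316, 273 and 377 CPM in untreated Bbs2-/- libraries, and 217, 250, 252 and 247 CPM in WT libraries. The untreated libraries lay above all 8 others. The log2 fold change was -0.54 for treated against untreated libraries (SE 0.10, edgeR adjusted p = 0.00175) and 0.42 for untreated against WT libraries (SE 0.10, adjusted p = 0.00707). Alone, with means of 3.44, 6.10 and 4.60 CPM in treated, untreated and WT libraries, it was -0.83 (adjusted p = 0.0378) and 0.41 (adjusted p = 0.276).

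Rpl10, an X-linked 60S gene needed for the last steps of subunit maturation, had 87.1% of its reads in copies. With them it was at 499, 480, 413 and 490 CPM in treated Bbs2-/- libraries, 617, 636, 612 and 768 CPM in untreated Bbs2-/- libraries, and 560, 471, 507 and 558 CPM in WT libraries, so that untreated libraries again lay above all others. The log2 fold change was -0.48 for treated against untreated (edgeR adjusted p = 0.00431) and 0.33 for untreated against WT libraries (adjusted p = 0.0283), while neither passed alone (adjusted p = 0.0928 and 0.33). Rpl3 with copies was at 311, 325, 277 and 355 CPM in treated, 421, 425, 379 and 431 CPM in untreated and 349, 277, 358 and 357 CPM in WT libraries, with log2 fold changes of -0.39 (adjusted p = 0.0149) and 0.30 (adjusted p = 0.0419). Rpl5, the partner of Rpl11 on the 5S RNA, averaged 394 ± 26.7 CPM in treated, 521 ± 44.6 CPM in untreated and 447 ± 34.7 CPM in WT libraries with its copies, which held 94.4% of the reads. It fell with the inhibitor (-0.40, edgeR adjusted p = 0.00639) and was no longer called for untreated against WT libraries (0.22, adjusted p = 0.0846). Rps6, the substrate of the S6 kinases, averaged 358 ± 26, 440 ± 34.7 and 412 ± 40.9 CPM with copies and passed with the inhibitor (-0.30, adjusted p = 0.0348).

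Of 10 members used as reference genes for quantitative PCR, 1 fell with the inhibitor and 1 rose in untreated against WT libraries, in both cases Rps3, while 37.2 and 39.2% of all tested genes were called. Rpl13a averaged 331 ± 27.2, 377 ± 51.9 and 347 ± 43.6 CPM, Rps18 271 ± 20.3, 297 ± 34.5 and 274 ± 19.7 CPM, and Rpl19 383 ± 30.3, 439 ± 26 and 401 ± 39.6 CPM in treated Bbs2-/-, untreated Bbs2-/- and WT libraries. Of 11 other common reference genes 3 fell and 1 rose with the inhibitor, and 3 rose and 2 fell in untreated against WT libraries. Gusb, a lysosomal enzyme gene among them, averaged 91.1, 306 and 121 CPM in the same groups. With library size alone 4 of the 10 ribosomal genes fell with the inhibitor and 6 rose in untreated against WT libraries, while 36.9 and 40.5% of all genes were called.

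Of the paralogs and namesakes, 0 of the 6 that passed the filter were called by edgeR with TMM scaling in any comparison. With library size alone Rpl22l1 and Rpl7l1 rose in untreated against WT libraries and fell with the inhibitor, and without treated 2 Rpl22l1 fell with the inhibitor (log2 fold change -0.43, edgeR adjusted p = 0.0236). Rpl3l, a striated muscle form of Rpl3, reached at most 0.926 CPM, in WT 1, and Rpl39l at most 0.581 CPM. Rpl10l, known from male germ cells, was at 0.103 CPM in 1 treated library and at 0 in the others. Rpl22l1 was at 39.5, 55.7, 39.7 and 38.9 CPM in treated Bbs2-/-, 47.4, 50.1, 47.5 and 67.1 CPM in untreated Bbs2-/- and 39.5, 39.9, 45.6 and 45.7 CPM in WT libraries (edgeR adjusted p = 0.102 for untreated against WT). The difference in log2 CPM between a paralog and its partner was tested for 4 pairs in 3 comparisons. No test passed after adjustment over the 12 tests, with a lowest adjusted exact permutation p of 0.0857. As 4 against 4 libraries allow no raw p below 0.0286, the adjusted test could hardly pass and shows no lack of change. That lowest raw p was reached by Rpl22l1 minus Rpl22 for untreated against WT libraries (difference 0.28). It was also reached with the inhibitor by Rpl7l1 minus Rpl7 (0.24) and Rpl36al minus Rpl36a (0.25). For treated against WT libraries Rpl36al minus Rpl36a reached it too (0.13). On the log2 FPKM scale the differences of Rpl22l1 and Rpl7l1 each gave an exact permutation p of 0.0571 in those comparisons. The Rpl36al differences still reached 0.0286 there. Rps27 shares its coding bases with Rps27rt, whose reads were not added to it, so its pair can vary with that split.

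Other gene groups of the translation machinery were set beside the ribosomal proteins. Genes of the mitochondrial ribosome, which translates the mitochondrial genome, moved the other way: of 69 tested 20 rose and 1 fell with the inhibitor (median 0.27), and 0 rose and 38 fell in untreated Bbs2-/- against WT libraries (median -0.40). Mrpl11 averaged 45.2, 30.3 and 49.8 CPM in treated, untreated and WT libraries (log2 fold change 0.58 with the inhibitor, edgeR adjusted p = 0.00279). Mrps6 averaged 86.6, 66.4 and 120 CPM (-0.85 for untreated against WT libraries, edgeR adjusted p = 0.000629). With library size alone 14 rose and 1 fell with the inhibitor, and 1 rose and 12 fell in untreated against WT libraries. Without WT 2 and WT 3 the last comparison had 0 higher and 6 lower.

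Of 70 genes of ribosome assembly 2 rose and 13 fell with the inhibitor (median -0.11), and 17 rose and 4 fell in untreated against WT libraries (median 0.15). Noc2l, whose yeast counterpart moves pre-60S particles through the nucleus, averaged 37.3, 61.5 and 39.8 CPM in treated, untreated and WT libraries (log2 fold change -0.72 with the inhibitor and 0.63 for untreated against WT libraries, edgeR adjusted p = 0.000207 and 0.000407). Fbl, the methyltransferase fibrillarin, averaged 26.9, 39.0 and 27.4 CPM in the same groups. Library size alone gave 0 higher and 22 lower with the inhibitor, and 39 higher and 0 lower for untreated against WT libraries. Without WT 2 and WT 3, 6 rose and 0 fell in the last comparison.

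Of 22 other TOP mRNA genes 1 rose and 4 fell with the inhibitor, and 3 rose and 2 fell in untreated against WT libraries. Npm1, a nucleolar chaperone, averaged 161, 242 and 169 CPM in treated, untreated and WT libraries (log2 fold change -0.59 and 0.51, edgeR adjusted p = 0.000244 and 0.000493). Without WT 2 and WT 3, 2 rose and 0 fell for untreated against WT libraries. Of 22 initiation and mTORC1 genes 5 rose and 3 fell with the inhibitor, and 2 rose and 7 fell in untreated against WT libraries, with median log2 fold changes of 0.19 and -0.18. With library size alone 2 rose and 5 fell with the inhibitor, so the balance of this list flips with the scaling. In untreated against WT libraries 3 rose and 4 fell with library size alone, and 2 rose and 2 fell without WT 2 and WT 3. Eif4ebp1, which restrains the cap-binding protein eIF4E, averaged 205, 89.1 and 273 CPM in treated, untreated and WT libraries. Mtor and Larp1 were not called (edgeR adjusted p = 0.303 and 0.349 with the inhibitor).

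Of 22 subunits and factors of RNA polymerases I and III 1 rose and 1 fell in each of these comparisons. With library size alone 0 rose and 1 fell with the inhibitor, and 6 rose and 0 fell in untreated against WT libraries, where 0 passed in either direction without WT 2 and WT 3. Myc, a transcription factor that drives genes of ribosome production, averaged 13.1 ± 1.04 CPM in treated, 23.5 ± 2.62 CPM in untreated and 12.8 ± 3.20 CPM in WT libraries. It fell with the inhibitor (log2 fold change -0.85, edgeR adjusted p = 0.00156) and rose in untreated against WT libraries (0.88, adjusted p = 0.00122). Among 11 p53 target genes, a group that free Rpl5 and Rpl11 can induce through Mdm2, 0 rose and 6 fell with the inhibitor, and 3 rose and 1 fell in untreated against WT libraries. Rack1, a 40S protein whose name falls outside the family's naming, averaged 302, 413 and 325 CPM in treated, untreated and WT libraries (log2 fold change -0.45 and 0.35, edgeR adjusted p = 0.00326 and 0.0133). Fau, a fusion of a ubiquitin-like protein and a 40S protein, was not called. No list described here had a gene called in treated against WT libraries.

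**Figure D5:**
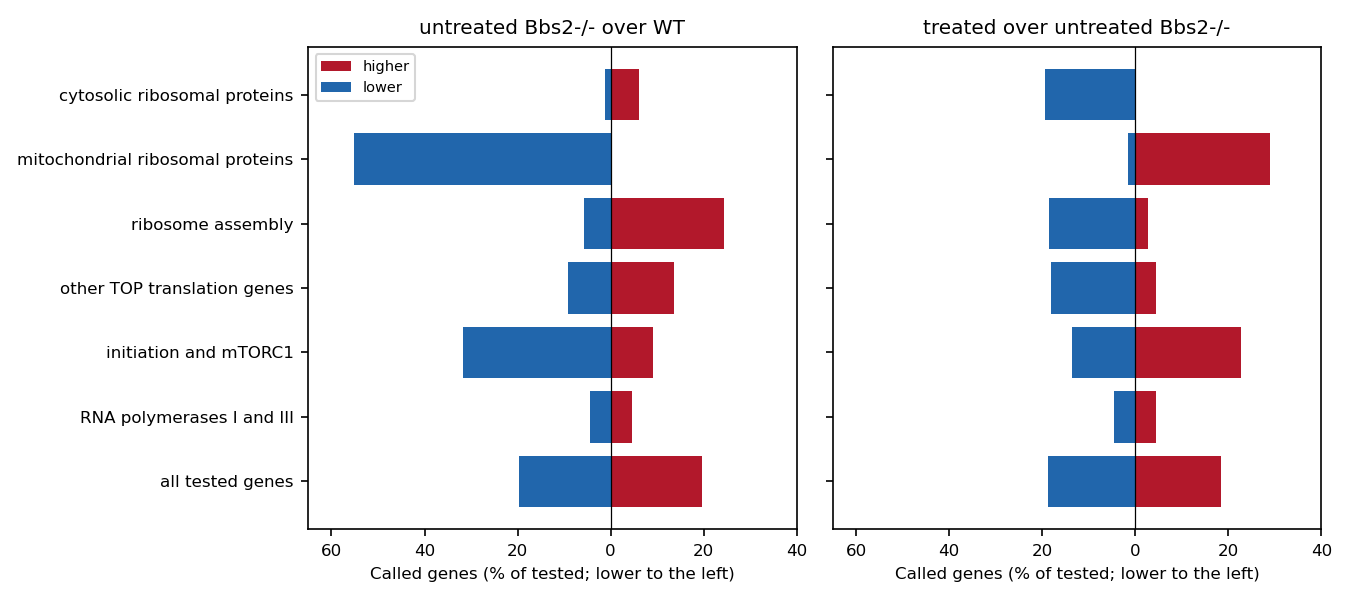
Share of each gene list called higher or lower (%, horizontal axis) in treated against untreated Bbs2-/- and in untreated Bbs2-/- against WT libraries, beside all tested genes. Cytosolic ribosomal proteins have 19.3 and 7.23% of members called in these comparisons, mitochondrial ribosomal proteins 30.4 and 55.1%, and all tested genes 37.2 and 39.2%.

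The plot of called shares by list uses TMM scaling. With the inhibitor the cytosolic family there had the lowest share of calls of these lists after the polymerase genes at 9.09%. For untreated against WT libraries its share was the lowest of all. With library size alone this order did not hold: 37 members were called with the inhibitor and 30 for untreated against WT libraries. In that fit 36.9 and 40.5% of all genes were called. Markers of cell types moved with the groups. Of 20 macrophage genes 0 rose and 19 fell with the inhibitor and 17 rose and 0 fell in untreated against WT libraries, and their sums were 995 to 2788 CPM in treated, 10123 to 14737 CPM in untreated and 1168 to 4882 CPM in WT libraries. Of 22 adipocyte genes 19 rose with the inhibitor and 18 fell in untreated against WT libraries, with sums of 66996 to 88901, 34766 to 45108 and 67205 to 88446 CPM in the same groups. Of 20 cell cycle genes 19 fell and 18 rose in these comparisons, with sums of 174 to 231, 447 to 536 and 164 to 333 CPM. The part of these markers in the levels of ribosomal protein genes was not tested.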

How the data were processed

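RNA of flash-frozen adipose tissue was extracted with TRIzol and RNeasy columns and made into Illumina TruSeq Stranded mRNA libraries, per the labels' protocols. The authors deposited estimated counts per gene for 53431 genes, of which 92.96 to 94.17% per library were whole within 1e-06, and a second table of log2 FPKM values, in each library of which 3.96 was the upper quartile. The submitters' processing notes name mm10. Neither aligner nor counter nor strand setting was given in the sources used here. Overlapping, antisense and near-identical genes are therefore uncertain. All 12 columns of each table were matched to samples by name, and 0 columns were left unused.

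Estimated counts were rounded and fitted in edgeR 4.0.16 (R 4.3.3) with filterByExpr, TMM scaling and the robust quasi-likelihood test over all 12 libraries, with 1 coefficient per group. The test was checked on simulated counts. CPM values use TMM-scaled library sizes. A chi-square per degree of freedom of 18.3 to 88.2 between libraries of a group showed no library deposited under more than 1 name. IDs were matched to GENCODE M21, where 52207 were found. Copies were found with blastn 2.17.0. Alternatives used DESeq2 1.42.0, limma 3.58.1, other scalings, filters and samples. Paralog pairs were compared with a 2-sided exact permutation test (scipy 1.17.1).

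Some members are counted here but not reported by name. Members and gene lists were chosen with earlier results of these data known. The text names up to 8 called members at each end of the fold changes of a comparison, the members of the lists of paralogs, stalk, 5S particle and PCR reference genes, the 5 highest and 5 lowest by log2 FPKM, and up to 4 genes of each other list by p. Members named for their copies, such as Rps13, Rps27, Rpl3, Rpl10 and Rps6, and those at the edge of the threshold were chosen after their values were seen, as was the sum with copies and the fit without the libraries with Foxj1 counts.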

Additional observations from a re-analysis of the deposited data

Results flagged for a closer look

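In 14 of 141 groups of 4 libraries the highest or lowest library stood farther from the others than Dixon's 95% critical value allows. Chance flags about 1 in 20 groups, and members of the family are not independent of each other. Untreated Bbs2-/- 4 was the high library in 8 of these cases. Its levels, with the range of the 3 other untreated libraries, were 584 CPM for Rpl41 (381 to 407), 376 CPM for Rplp2 (182 to 205), 406 CPM for Rps29 (281 to 291) and 309 CPM for Rpl37a (212 to 223). They were 248 CPM for Rps26 (192 to 195), 194 CPM for Rps28 (133 to 140), 179 CPM for Rpl37 (131 to 137) and 67.1 CPM for Rpl22l1 (47.4 to 50.1). Treated Bbs2-/- 2 had 55.7 CPM of Rpl22l1, against 38.9 to 39.7 in the other treated libraries. Treated 3 had the lowest summed share of the members at 1.61%, against 1.80 to 1.83% in the other treated libraries. Among WT libraries, Rps2 was at 367 CPM in WT 3 (219 to 241 in the others) and Rpl12 alone at 7.09 CPM in WT 4 (3.54 to 3.91). In WT 1, Rps7 was at 144 CPM (82.0 to 90.4 in the others) and Rps14 at 214 CPM (234 to 238).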

How the results depend on the processing

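No setting reversed the sign of a called value. For treated against untreated Bbs2-/- libraries, where 16 members were called, 37 were called with library size alone and 44 with copies added as well, 7 with limma on log2 FPKM, 7 with no filter and 9 without WT 2 and WT 3. Without the 4 libraries with Foxj1 counts it was 2, or 4 with copies. For untreated Bbs2-/- against WT libraries, where 6 were called, it was 30 with library size alone and 36 with copies added as well, 2 with no filter, 2 with only the groups compared in the fit and 0 without WT 2 and WT 3, where 3417 of all genes were called against 6263. Leaving out 1 library at a time gave 4 to 20 and 1 to 7 members called in these comparisons. Where the share of all genes called in a setting is not given, the count does not set the members apart from other genes. For treated Bbs2-/- against WT libraries, where 41 of all genes were called, DESeq2 called 281, the fit of only these groups 2, the fit without WT 2 and WT 3 1 and the fit without the libraries with Foxj1 counts 2 with or without copies, with a range of 3 to 49 when 1 library was left out. With the replicate number as a block 8 members were called for treated against untreated libraries and 9 genes in all for treated against WT libraries. Deviations of same-numbered libraries correlated between -0.149 and 0.308 over all groups. Between treated and untreated Bbs2-/- libraries they were all positive, at 0.0999 to 0.308, and 6 of these 8 libraries correlated best with their own number, a hint from the data that the labels do not explain. As not every pair was over 0.1, the numbers were not taken to pair the samples. Summed shares with pseudogenes named -ps were 1.97% in treated and 2.02% in WT libraries, and with all copies 2.15% in treated, 2.67% in untreated and 2.21% in WT libraries. The share of members with a pyrimidine run at the start was 45.5 or 34.8% with a start within 5 bases, against 21.2%. Called members that the text names lost their call in 107 settings for treated against untreated libraries and in 59 for untreated against WT libraries. The cause of these shifts was not tested. With 4 libraries a group, the smallest log2 fold change called among the members was 0.24 for untreated against WT and -0.28 for treated against untreated libraries.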
